A study of Arabidopsis thaliana with 4 samples.

Results

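Pectin is the acidic polysaccharide of the plant cell wall, and 3 Arabidopsis genes of its breakdown are described here over the 4 arrays of the study. AT4G24780 and AT5G63180 are pectate lyase-like genes, and ATPMEPCRB is a pectin methylesterase gene with the locus AT4G02330, also called PME41 in the RefSeq annotation. Each has 1 probe set annotated to that gene alone (254119_at, 247377_at and 255524_at), out of 22746 probe sets and 13350 named genes. They were chosen by measured values of these same arrays, the pectate lyase-like genes for low values after abscisic acid (ABA) and ATPMEPCRB for low values in the gpa1 line. Those contrasts are therefore given for them as descriptions without a test, and the contrast that did not choose a gene is tested.

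Homogalacturonan, the main pectin, is delivered to the wall with most of its acid groups methylated. Pectin methylesterases remove the methyl groups, after which calcium can cross-link the chains, or pectate lyases and polygalacturonases can cut them. Inhibitor proteins bind methylesterases and block them. ABA is made in drought and in ripening seeds and slows seedling growth, and GPA1 encodes a G protein alpha subunit.

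RNA came from whole 10-day-old plants of the ecotype ws-2 (WS here), either unmodified or of a line labelled gpa1 that carries a T-DNA insertion. Each genotype was sampled untreated and after 3 h with 100 µM ABA, and each of the 4 Affymetrix ATH1 arrays held a pool of 10 plants. The plants were kept on MS agar at 21 °C, with 16 h of light and 8 h of darkness a day. With 1 array per group, no group has a replicate, and the small number of arrays limits the precision throughout. The labels place the insertion in At3g26300, which the annotation names CYP71B34, while GPA1 is AT2G26300, whose probe set is unnamed in the annotation used and was not analysed here. CYP71B34 read 105 to 122 over the 4 arrays, and its averaged genotype difference of -0.03 (log2) had a limma adjusted p of 0.993, so neither gene checks the label. The line is 1 mutant stock beside 1 WS stock, so mutation and stock cannot be told apart.

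The values are linear probe-set intensities, and array medians ran from 42.8 to 48.0. Intensities at or below 19.2, the 30th percentile over all arrays, were treated as a floor, and 28.6% to 30.9% of probe sets per array lay there. A fold against a value at the floor is a bound, written as "at least". Shoot and root markers were both present, as the label of whole plants has it: all 4 shoot markers, with summed intensities of 9898 to 14298, and the 3 root markers measured, with sums of 2329 to 3311, were above the floor on every array. Both sums were highest in the untreated WS array and lowest in the treated WS array. LHCB4.3 alone among the markers had its highest value, 171, in treated WS. The mean of 9 spike-in control probe sets was also highest in untreated WS (383) and lowest in treated WS (217). The 25S ribosomal RNA probe set had its highest and lowest values on the same arrays (2236 and 959). The part of such array-wide readings in the sums was not tested. In whole plants, fewer cells of a type and less RNA per cell cannot be told apart.

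AT4G24780 was bright on both untreated arrays and dim on both ABA arrays. In WS its intensity was 632 untreated and 41.3 with ABA, and in gpa1 it was 617 untreated and 73.3 with ABA. The untreated values of the genotypes were nearly equal, and both ABA values lay far below them but above the floor. The intensity with ABA was 15.3-fold lower in WS and 8.42-fold lower in gpa1. Averaged over the genotypes, the ABA change was -3.50 ± 0.16 (SE) in log2 units, rank 5 from the lowest among 13647 tested probe sets, whose median was -0.16. AT4G24780 was chosen for this change, so nothing is read from the rank or the SE.

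AT5G63180 had the same course at its own signal level. In WS its intensity was 191 untreated and 3.60 with ABA, and in gpa1 it was 207 untreated and 13.7 with ABA. Both ABA values were below the floor and so have no order between them. The intensity with ABA was lower by at least 9.94-fold in WS, and in gpa1 by at least 10.8-fold. The averaged change, with those values at the floor, was -3.37 in log2 units, which is a bound and has no rank. At the 15th percentile floor the change was -5.09 in WS and -3.92 in gpa1. The WS value is still a bound, since the WS ABA intensity lay below that floor too. Thus 2 of the 3 genes were at least 2-fold lower with ABA in each genotype, where 6.73% of tested probe sets were so in WS and 6.88% in gpa1. This contrast chose the genes, and nothing is read from the count.

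ATPMEPCRB went the other way with ABA. In WS its intensity was 49.4 untreated and 211 with ABA, and in gpa1 it was 25.9 untreated and 64.4 with ABA. Each ABA array read higher than the untreated array of its genotype, and each gpa1 array lower than the WS array of the same treatment. The treated gpa1 array was therefore not far above the untreated WS array.

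**Figure D1:**
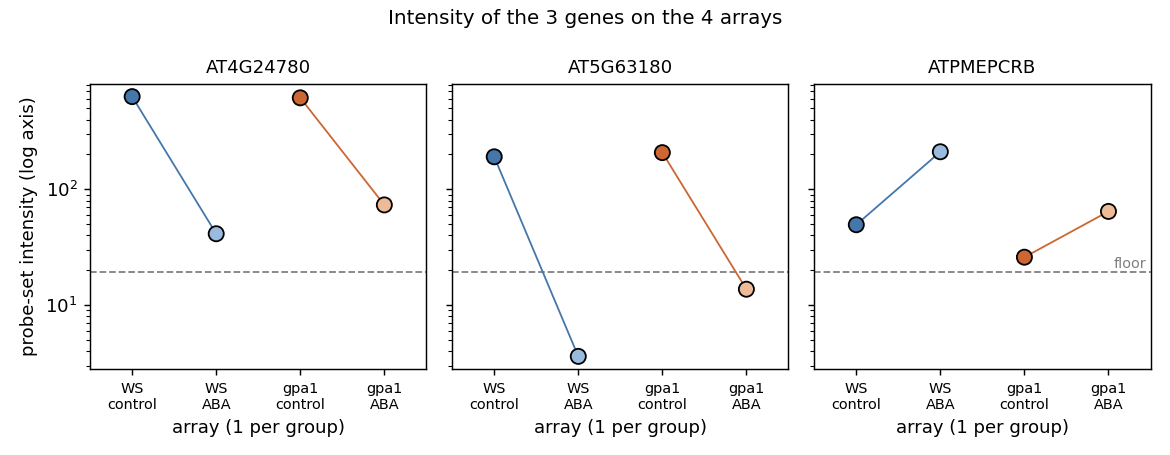
Probe-set intensity (log axis) of AT4G24780, AT5G63180 and ATPMEPCRB on the 4 arrays, 1 point per array with a line joining the untreated and the ABA array of a genotype. The dashed line is the floor of 19.2, below which both ABA values of AT5G63180 lie and are bounds only.

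The ABA contrast did not choose ATPMEPCRB and can be tested for it. ATPMEPCRB rose with ABA, by 4.27-fold in WS and by 2.49-fold in gpa1. Averaged over the genotypes, this was 1.70 ± 0.23 (SE) in log2 units, with a 95% interval of 1.25 to 2.16 and a limma adjusted p of 6.50e-11 in the model of treatment and genotype. In that contrast 17.1% of all tested probe sets were called higher and 25.7% lower, and ATPMEPCRB ranked 481 from the highest. By the 2-fold measure, 8.61% of tested probe sets were higher with ABA in WS and 7.84% in gpa1, and ATPMEPCRB was among them in both. At the 45th percentile floor, which lies above its untreated gpa1 value, its ABA change in gpa1 was at least 0.79 in log2 units. That bound is under 2-fold.

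That call rests on fitting both factors over all arrays. Without the filter on dim probe sets the adjusted p was 0.203, in a fit that called 0 of 22746 probe sets for ABA. With treatment as the sole factor the adjusted p was 0.0523. With the sole factor and 1 array left out, the ABA change of ATPMEPCRB was 2.17 when the untreated WS array was omitted (limma adjusted p of 0.134) and 0.85 when the treated one was (0.294). It was 1.24 on omission of untreated gpa1 (0.310) and 2.56 on omission of treated gpa1 (0.0671). The rise therefore kept its direction in each of these fits and lost its call in each. With genotype out of the model and 1 array left out, treatment shares its contrast with genotype, so those changes mix both factors.

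The genotype contrast, in turn, did not choose the pectate lyase-like genes. AT4G24780 had an averaged difference, gpa1 minus WS, of 0.40 ± 0.16 (SE) in log2 units, with a 95% interval of 0.09 to 0.70, an unadjusted p of 0.0116 and a limma adjusted p of 0.208. It therefore did not pass, where 1.42% of tested probe sets were called higher in gpa1 and 1.48% lower. The average joined unlike values: untreated, the difference was -0.03, and with ABA it was 0.83, gpa1 reading 1.77-fold above WS. A difference of that size or larger between the ABA arrays, in either direction, was seen in 3.11% of tested probe sets. AT5G63180 had a difference of 0.12 untreated, gpa1 reading 1.09-fold above WS, and no measurable difference with ABA because both arrays were at the floor. Its averaged difference of 0.06 ± 0.23 (SE) had a limma adjusted p of 0.988 and a 95% interval of -0.39 to 0.51. That average includes a 0 set by the floor. Lowering the floor to the 15th percentile gave an averaged difference of 0.71 (limma adjusted p of 0.177) and 1.29 with ABA. The WS ABA value was still below that floor, so both are bounds, and the interval does not cover the choice of floor.

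The genotype difference of ATPMEPCRB, which chose it, is a description. WS read 1.91-fold above gpa1 untreated and 3.28-fold above it with ABA, or -0.93 and -1.71 in log2 units as gpa1 minus WS. Thus 1 of the 3 genes was at least 2-fold lower in gpa1 with ABA and none untreated, where 1.11% and 0.542% of tested probe sets were. The averaged difference of -1.32 was rank 39 from the lowest. The untreated gpa1 intensity, 25.9, was close to the floor. Raising the floor to the 45th percentile, above that intensity, made the untreated difference -0.41, which is a bound.

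The ABA responses differed between the genotypes, in opposite directions for AT4G24780 and ATPMEPCRB. The response of gpa1 minus that of WS was 0.86 in log2 units for AT4G24780, whose decrease was smaller in gpa1. It was -0.78 for ATPMEPCRB, whose increase was smaller in gpa1. At the 45th percentile floor the difference for ATPMEPCRB was -1.30, a bound because its untreated gpa1 value lay below that floor. Differences at least as large in either direction were seen in 5.09% and 7.17% of tested probe sets. Neither passed 2-fold, as 1.36% of tested probe sets did upward and 1.68% downward. For AT5G63180 the difference was -0.12 with both ABA arrays at the floor. It was 1.17 once the floor was set at the 15th percentile, still above the WS ABA value, so its direction is not settled.

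With 1 array per group, none of these differences of responses was tested. The same contrast was 1.35 for 9 spike-in probe sets (BioB, BioC, BioDn and CreX) and 1.44 for the 25S ribosomal RNA probe set. These readings have the sign of AT4G24780 and the opposite sign of ATPMEPCRB, and their part in the result was not tested.

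**Figure D2:**
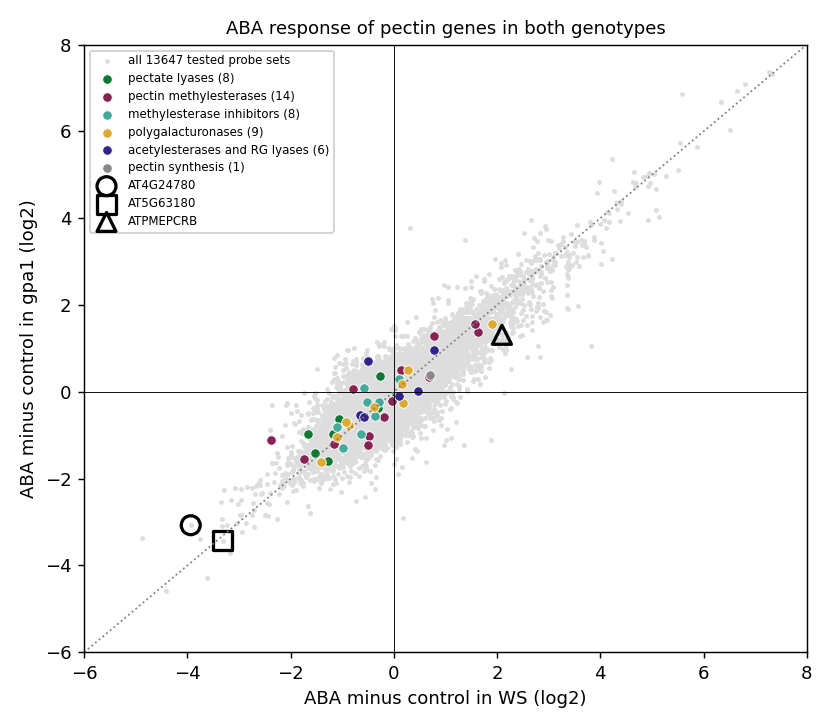
Log2 ABA change in WS (horizontal axis) against that in gpa1 (vertical axis) for all tested probe sets (grey), the tested genes of the pectin lists (coloured by class, number in brackets) and the 3 genes (outlined). The dotted line marks equal responses, AT4G24780 lies at -3.94 and -3.07, and ATPMEPCRB lies at 2.09 and 1.31.

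The patterns most like each gene were taken over the 4 arrays as the smallest root-mean-square distance of log2 values after subtracting each probe set's own mean, among 7284 other tested probe sets with 1 gene. For AT4G24780 they were AT4G15390, AT1G19960, UGT72E1, AT5G63180 and AT4G21870, at distances from 0.21 to 0.38. For AT5G63180 they were UGT72E1, AT4G15390, AT4G21870, AT1G19960 and AT4G24780, at 0.12 to 0.30. With 2 of its 4 values set to the floor, every distance that involves AT5G63180 holds for that floor alone, and both pectate lyase-like genes were chosen for the same contrast. UGT72E1, a glucosyltransferase of lignin precursors, read 418 untreated and 41.5 with ABA in WS, and 390 and 46.0 in gpa1.

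For ATPMEPCRB the nearest patterns were those of ATHSP22.0, a small heat shock protein gene, AT4G13180, AT4G24130, GH3.3, an auxin-conjugating enzyme gene, and AT5G43180, at 0.24 to 0.34. ATHSP22.0 read 30.7 untreated and 127 with ABA in WS, and 20.6 and 57.7 in gpa1. It put the 4 arrays in the same order as ATPMEPCRB, lowest in untreated gpa1 and highest in treated WS. It was picked for likeness over these same 4 values, so nothing is read from that order.

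In the annotation, 2 other listed methylesterase genes stand within 3 genes of ATPMEPCRB. AT4G02320, the adjacent gene, was below the floor on all 4 arrays. AT4G02300 read 5.80 untreated and 11.9 with ABA in WS, and 12.5 and 23.7 in gpa1, above the floor only on the last. Both were too dim to be tested. No listed pectin gene stood within 5 genes of AT4G24780 or AT5G63180.

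The other genes of pectin turnover were taken from lists of 211 loci. Of these, 134 had a probe set named for them alone in the annotation used, and 46 were bright enough to be tested. Probe sets unnamed in that annotation could not be matched, so a locus without a match may still have one on the array. Of the 134, 50 were at or below the floor on all 4 arrays. The class of most loci comes from textbook family membership, since the annotation gives them no name beyond the locus. With ABA, 18 of the 46 fell and 7 rose by limma, where 25.7% of all tested probe sets were called lower and 17.1% higher. Their median change was -0.36 in log2 units, beside -0.16 for all. Under median centring, which moved the median of all tested probe sets to -0.01, 17 fell and 8 rose, where 16.8% of all tested probe sets were called lower and 21.1% higher, and the share of higher calls among all calls went from 39.9% to 55.6%.

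These counts shrank with treatment as the sole factor and 1 array left out. They were 3 higher and 4 lower on omission of untreated WS, 3 and 7 for treated WS, 3 and 9 for untreated gpa1, and 2 and 7 for treated gpa1. In those fits the calls over all tested probe sets shrank too, to between 5.36% and 7.33% higher and between 3.09% and 3.83% lower, so the smaller counts are not particular to the listed genes. Of the genes named below, AT3G10720, AT1G23205, AT4G25260, AT3G09405 and AT3G09410 kept no call in any of those fits. AT2G47550 and AT5G62350 lost theirs in some. Without the filter on dim probe sets limma called 0 of the listed genes for ABA, and 0 of all 22746 probe sets. The listed genes had 7 higher and 18 lower at an unadjusted p under 0.05. For such unadjusted counts, here and below, the share of all probe sets was not computed, so nothing is read from them.

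Of the other pectate lyases, 8 of 24 were tested. By limma 5 fell and none rose, where 25.7% of all tested probe sets were called lower and 17.1% higher. At an unadjusted p under 0.05 the counts were 6 and 0. The median change of the 8 genes was -0.97. AT1G67750 read 55.5 untreated in WS and 51.2 in gpa1 and was at the floor on both ABA arrays, a fall of at least 2.89-fold and at least 2.67-fold. AT3G53190 read 195 untreated and 80.9 with ABA in WS, and 198 and 65.9 in gpa1, a fall of 2.42-fold and 3.01-fold. These 2 genes were called in all 4 fits that left out 1 array. AT1G67750 was below the filter and not tested with the floor at the 15th percentile or the filter at the 60th, and its averaged change went from -1.47 to -0.52 at the 45th percentile floor.

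AT3G07010 fell 3.16-fold in WS but 1.96-fold in gpa1, so its response, like that of AT4G24780, was smaller in gpa1, by 0.69 in log2 units. AT1G04680 fell by 2.28-fold and 1.97-fold. With 1 array left out, AT3G07010 kept its call only on omission of treated gpa1, and AT1G04680 only on omission of either gpa1 array. The averaged changes of these 4 pectate lyases ran from -1.47 to -1.08, beside -3.50 for AT4G24780 and, as a bound, -3.37 for AT5G63180. AT4G24780 and AT5G63180 were chosen for this change, so nothing is read from the gap.

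**Figure D3:**
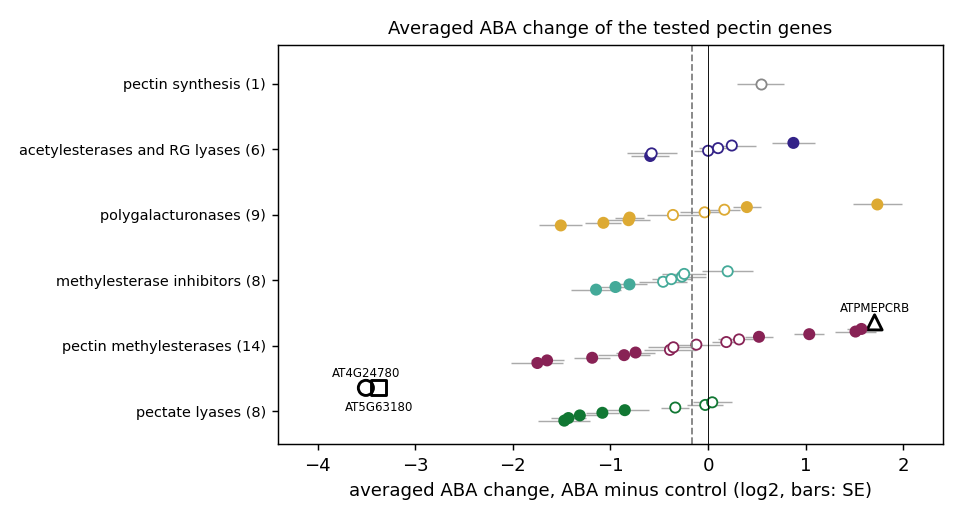
Averaged ABA change (log2, bars are SE) of the tested genes of each pectin class, filled where the limma adjusted p is under 0.05 and open otherwise, with the 3 genes as outlined symbols above the row of their class. The dashed line is the median of all tested probe sets, -0.16. AT4G24780 and AT5G63180, which were chosen for this change, lie left of every tested listed gene, and ATPMEPCRB lies beside the highest methylesterases.

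The methylesterases, like all tested probe sets, had calls in both directions. Of 65 listed besides ATPMEPCRB, 14 were tested, 4 rose and 5 fell, with a median of -0.24. Of all tested probe sets, 17.1% were called higher and 25.7% lower, so with 14 genes nothing is read from the split. AT3G49220 read 355 untreated and 1050 with ABA in WS, and 335 and 996 in gpa1, a rise of 2.96-fold and 2.98-fold. AT1G23200 rose by 3.11-fold and 2.60-fold, AT2G47550 by 1.71-fold and 2.45-fold, and AT3G10720 by 1.61-fold and 1.28-fold. The averaged changes of AT3G49220 and AT1G23200, 1.57 and 1.51, were near the 1.70 of ATPMEPCRB. Their averaged genotype differences were -0.08 and -0.01, beside -1.32 for ATPMEPCRB, which that contrast chose.

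In the other direction, the methylesterase AT5G04960 read 263 untreated and 78.3 with ABA in WS, and 214 and 72.9 in gpa1, a fall of 3.36-fold and 2.93-fold. AT1G02810 fell by 2.25-fold and 2.31-fold. ATPMEPCRD read 100 untreated and 16.4 with ABA in WS, and 41.6 and 3.10 in gpa1, so both ABA arrays were at the floor. Its fall was at least 5.21-fold in WS, in gpa1 at least 2.17-fold, and averaged -1.75 with a limma adjusted p of 5.88e-09. Its averaged genotype difference of -0.63 had an adjusted p of 0.266. Both ATPMEPCRB and ATPMEPCRD were lower in untreated gpa1 than in untreated WS, while with ABA the one rose and the other fell. With the floor at the 15th percentile ATPMEPCRD was below the filter and not tested. With 1 array left out, it kept its call only on omission of untreated gpa1 (-2.38, adjusted p of 0.0117).

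Among the methylesterase inhibitors, 8 of 20 were tested, 3 fell and none rose by limma, with the same counts at an unadjusted p under 0.05. Over all tested probe sets limma called 25.7% lower and 17.1% higher. AT5G62350 read 1240 untreated and 581 with ABA in WS, and 1122 and 642 in gpa1, a fall of 2.13-fold and 1.75-fold. AT1G23205 fell by 1.99-fold and 2.46-fold, and AT4G25260 by 1.55-fold and 1.97-fold.

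Of the 57 polygalacturonases, 9 were tested, 4 fell and 2 rose, where 25.7% of all tested probe sets were called lower and 17.1% higher. AT3G62110 fell by 2.66-fold and 3.05-fold, AT3G06770 by 2.14-fold and 2.07-fold, AT1G19170 by 1.82-fold and 1.70-fold, and AT4G23820 by 1.89-fold and 1.61-fold. AT1G48100 was at the floor in untreated WS and read 71.3 there with ABA, and 27.7 and 82.4 in gpa1. It rose by at least 3.71-fold and by 2.97-fold. AT3G16850 rose by 1.21-fold and 1.43-fold. With treatment as the sole factor, AT3G16850 (adjusted p of 0.187) and AT4G23820 (0.0534) lost their ABA calls. AT3G16850 also did without the intensity trend (0.106). With 1 array left out as well, AT3G16850, AT4G23820 and AT1G19170 kept no call, while AT3G62110, AT3G06770 and AT1G48100 lost theirs in some fits.

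Of the 19 pectin acetylesterases and rhamnogalacturonan lyases, which remove acetyl groups and cut the branched pectin, 6 were tested, 1 rose and 1 fell. The shares over all tested probe sets were 17.1% higher and 25.7% lower. The acetylesterase gene AT3G09405 rose by 1.72-fold and 1.95-fold, and its neighbour by locus number, AT3G09410, fell by 1.57-fold and 1.45-fold. AT3G09410 lost its call under median centring, with an adjusted p of 0.0596. Of the 26 listed genes of pectin synthesis, 1 had a probe set named for it alone in the annotation used, so the class was hardly covered. This was GAUT15, a galacturonosyltransferase-family gene, with an averaged change of 0.54 and a limma adjusted p of 0.0581.

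The listed genes were also tested for genotype. Of the 46, 1 was higher and 1 lower in gpa1 by limma, where 1.42% and 1.48% of all tested probe sets were. At an unadjusted p under 0.05 the counts were 2 and 4, with no share of all probe sets beside them. The polygalacturonase AT4G23820 read 397 untreated and 209 with ABA in WS, and 243 and 151 in gpa1, each gpa1 array below the WS array of its treatment. Its averaged difference was -0.59 ± 0.15 (SE), with a limma adjusted p of 0.00500. The acetylesterase AT1G57590 read 89.6 untreated and 63.2 with ABA in WS, and 95.9 and 156 in gpa1. Its averaged difference of 0.70 ± 0.20 (SE), adjusted p of 0.0231, joined 0.10 untreated and 1.31 with ABA. Neither was called without the intensity trend (adjusted p of 0.233 and 0.338) or with genotype as the sole factor. The averaged difference of ATPMEPCRB, -1.32, lay below that of every tested listed gene, of which ATPMEPCRD had the lowest. This contrast chose ATPMEPCRB, so nothing is read from that place.

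**Figure D4:**
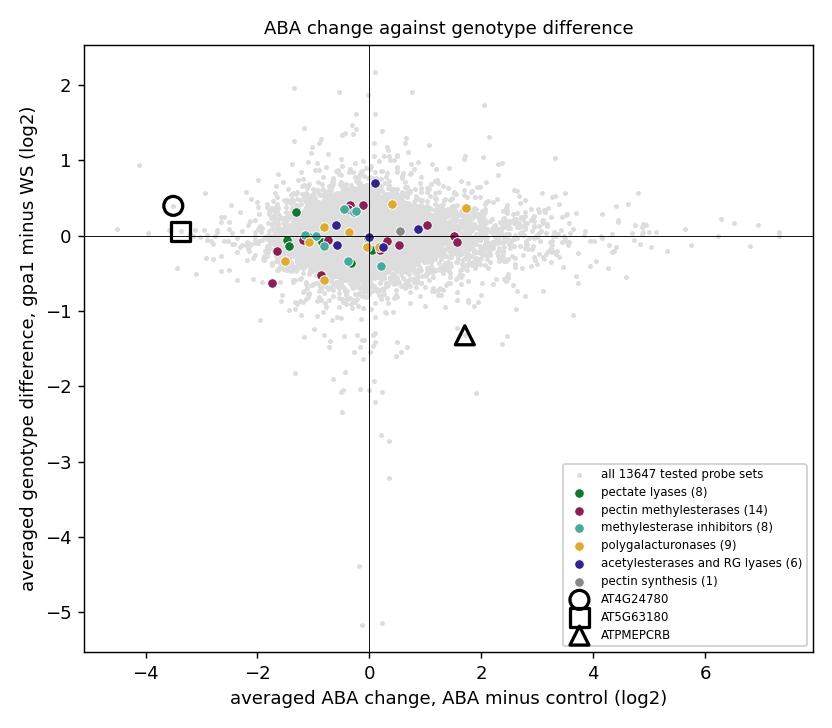
Averaged ABA change (horizontal axis, log2) against the averaged genotype difference, gpa1 minus WS (vertical axis, log2), for all tested probe sets (grey), listed pectin genes (coloured by class) and the 3 genes (outlined). The pectate lyase-like genes lie far left near 0 on the vertical axis, at 0.40 and 0.06, and ATPMEPCRB lies at 1.70 and -1.32.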

How the data were processed

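The authors deposited linear probe-set intensities for 22810 probe sets on 4 Affymetrix ATH1 arrays, 1 per group, with a 2%-trimmed mean near 100 on each. The summarising program is not named in the sources used. After 64 control probe sets were removed, arrays were scaled to one trimmed mean, floored at 19.2 and put on a log2 scale. The 13647 probe sets whose mean log2 intensity exceeded the 40th percentile entered limma 3.58.1 (R 4.3.3) with treatment and genotype as factors and no interaction, leaving 1 residual degree of freedom. Tests used eBayes with an intensity trend, two-sided, and Benjamini-Hochberg adjustment over all tested probe sets at 0.05. Each factor's levels stand in for replicates of the other. The 1 residual degree of freedom is the difference of the ABA responses, which the model counts as spread. That spread is pooled over probe sets (median of 171 prior degrees of freedom), so a gene's SE comes mostly from other probe sets. It can be small where the gene's own responses differ. The p-values and SEs do not measure variation between replicate arrays or plants. The fit was also run on simulated arrays with additive changes, normally distributed noise, no interaction and no floor. That run checks the code only, since the real arrays differ from it in these points.

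The platform annotation gave 1 gene for 13513 probe sets and several for 503, and 8730 are unnamed here. Names were updated through RefSeq TAIR10.1. For a listed gene with more than 1 probe set the brightest was used, and none of these genes was tested. The rule for named genes took the 3 genes, up to 4 called genes per list class, contrast and direction with the largest averaged change, the 3 listed genes above the floor with the largest difference of responses, the 5 nearest patterns and neighbours of the same family. GAUT15 is outside it and was named after its values were seen. The closest paralog by protein identity was not analysed here. Members and lists were chosen with earlier results of these data known. Scaling, floor, filter, trend, a sole factor and leaving out arrays were tried as alternatives.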

Additional observations from a re-analysis of the deposited data

Results flagged for a closer look

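AT1G57590, an acetylesterase gene, had ABA changes of opposite sign in the genotypes, -0.50 in WS and 0.71 in gpa1, a difference of the responses of 1.21 on the log2 scale. AT3G47400, a methylesterase gene, had -0.79 in WS and 0.08 in gpa1, a difference of 0.863. At the 45th percentile floor, which lies above its treated WS value, the difference was 0.42, a bound. Both rest on 1 array per group, and the differences were not tested. The 9 spike-in control probe sets had changes of opposite sign in the same direction, -0.82 in WS and 0.53 in gpa1.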

How the results depend on the processing

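No paired analysis was possible because each group has 1 array. With dim probe sets kept, 5116 probe sets had identical values on all arrays at the floor. Limma then called 0 of all 22746 probe sets for ABA, and 0 listed genes in either contrast. At an unadjusted p under 0.05 the listed genes had 7 higher and 18 lower for ABA and 2 and 2 for genotype. There ATPMEPCRB kept its ABA change of 1.70, with an adjusted p of 0.203. With the treatment as the sole factor the change was again 1.70 (adjusted p of 0.0523), and over the fits that also left out 1 array it ran from 0.85 to 2.56. The listed genes called for ABA in those fits numbered 2 to 3 higher and 4 to 9 lower. In the genotype contrast limma called 0 higher and 0 lower without the intensity trend (3 and 4 unadjusted), with genotype as the sole factor (0 and 0) and with 1 array left out (0 higher and 0 to 1 lower). Leaving out 1 array gave averaged genotype differences from -1.57 to 2.36 for AT4G24780 and from -1.66 to 1.78 for AT5G63180. They were negative without WS ABA (-1.57 and -1.60) and without gpa1 control (-1.14 and -1.66), since genotype then shares its contrast with treatment. In the remaining alternatives the averaged genotype differences of both genes did not pass, at 0.39 to 0.41 and 0.05 to 0.71. The difference of the responses of AT5G63180 changed sign, to 1.17, with the floor at the 15th percentile, because its ABA values lie below the main floor. Its WS ABA value lies below the 15th percentile floor too, so 1.17 is a bound. ATPMEPCRB and AT5G63180 were below the filter at the 60th percentile, so no test of them exists there. Signal near the floor limits AT5G63180 after ABA and ATPMEPCRB in gpa1 control. The cause of the other lost calls was not tested.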
